A study of Mus musculus with 12 samples.

Results

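The Hox genes were followed across cultured mouse adipocytes that had been treated to delete a floxed exon of Prdm16, or with vehicle, and had then been differentiated with or without rosiglitazone. Every gene whose symbol consists of Hoxa, Hoxb, Hoxc or Hoxd and a number was taken, read on a probe set with 1 gene symbol, or, where several such probe sets existed, on the brightest by its mean over the 12 arrays. The rule found 36 of the 22180 genes tested and used no difference between groups. Hoxa11 and Hoxd4 were read only on probe sets with several symbols and are not among the members. The members were 9 genes of the Hoxa, 10 of the Hoxb, 9 of the Hoxc and 8 of the Hoxd cluster. Hoxb5 was the 1 member with more than 1 single-symbol probe set.

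All cells came from precursors of inguinal fat, a subcutaneous white depot of the mouse, and all carried the genotype R26Cre/Prdm16floxEx9, a Cre recombinase at the Rosa26 locus together with a Prdm16 allele floxed at exon 9. Prdm16 is a transcriptional regulator of the brown and beige fat programme. For 3 days, growing cells were given the ethanol vehicle or 1 uM 4-hydroxytamoxifen, with which tamoxifen-dependent forms of Cre are activated, and were then differentiated with or without 1 uM rosiglitazone, an agonist of the adipocyte nuclear receptor PPARγ. The 4 groups of 3 arrays are named EtOH (vehicle), 4OHT (4-hydroxytamoxifen), EtOH_Rosi (vehicle, then rosiglitazone) and 4OHT_Rosi (4-hydroxytamoxifen, then rosiglitazone). The ethanol controls carry Cre and the floxed allele too, and no group without Cre received 4-hydroxytamoxifen, so the effect of the ligand itself and that of the recombination cannot be told apart. The labels state neither the age and sex of the mice nor whether the arrays of a group came from separate cultures. The p-values therefore measure the spread between arrays, which may be technical. The RNA came from whole cultures, in which fewer cells of a type and less RNA per cell cannot be told apart.

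Hox genes encode homeodomain transcription factors that stand in clusters, and their number, the paralog group, follows their place in the cluster. In the embryo they are switched on in that order from head to tail, and adult cells of mesenchymal origin, among them fat precursors, keep a Hox pattern that records where in the body they arose. Fat depots differ in this pattern. Hoxc8, Hoxc9 and Hoxc10 are used as markers of white against brown fat, Hoxc8 is a known target of miR-196a and a repressor of Cebpb, and Hoxc10 is known as a repressor of Prdm16-dependent browning.

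2 sets of sequences are shown: the promoter of Hoxa9, because it was the Hox gene with the widest range of group means, and the microRNAs encoded within the Hox clusters, because their seeds fall into families that target Hox transcripts. The Hoxa9 window in RefSeq (build GRCm38.p6) lies at chr6:52227321-52227620 on the minus strand and runs from 250 bases before the gene start to 50 bases after it. The capitals mark its 1 match to the GC box GGGCGG, the binding letters of Sp-family factors, at position 148 of the window.
Hoxa9 promoter: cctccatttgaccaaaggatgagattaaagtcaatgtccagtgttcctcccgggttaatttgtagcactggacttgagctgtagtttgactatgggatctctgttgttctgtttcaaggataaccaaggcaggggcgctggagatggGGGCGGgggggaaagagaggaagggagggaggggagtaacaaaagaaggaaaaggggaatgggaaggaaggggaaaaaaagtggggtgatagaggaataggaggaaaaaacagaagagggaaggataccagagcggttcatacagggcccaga
The window held no match on either strand to AGGTCA, the half-site of nuclear receptors, to the DR1 element, 2 such half-sites in a row spaced by 1 base as PPARγ with its partner can bind, or to the core of the interferon-stimulated response element, GAAA 2 times in a row spaced by 2 bases. Of all 32851 promoters in the same table, 35.7% held the GC box, 16.3% the half-site, 0.0396% the DR1 element and 3.44% the interferon element. Each DR1 element also counts as a half-site. Promoters were listed for 20 of the 36 Hox members, in 22 windows. The GC box stood in those of 10 members, and the half-site in those of 6, namely Hoxa5, Hoxb4, Hoxc4, Hoxd3, Hoxd8 and Hoxd10. A match is a description of letters and not a binding site.

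The mature microRNAs are given from RefSeq with the seed, bases 2 to 8, in capitals. The miR-196 genes lie at chr11:96265187-96265208 (Mir196a-1, plus strand), chr15:102973365-102973386 (Mir196a-2, plus strand) and chr6:52230129-52230150 (Mir196b, minus strand), and the miR-10 genes at chr11:96317186-96317208 (Mir10a, plus strand) and chr2:74726074-74726096 (Mir10b, plus strand), all as mature arms in GRCm38.p6.
mmu-miR-196a-5p: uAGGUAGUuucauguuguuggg
mmu-miR-196b-5p: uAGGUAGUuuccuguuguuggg
mmu-miR-10a-5p: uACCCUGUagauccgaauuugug
mmu-miR-10b-5p: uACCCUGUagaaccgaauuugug
The sequences form 2 seed families, AGGUAGU and ACCCUGU. The arrays carried single-symbol probe sets for Mir196a-1, Mir196a-2 and Mir10b, which read RNA from the gene and not the mature strand. None of the 3 passed the test in any comparison. In the order EtOH, 4OHT, EtOH_Rosi, 4OHT_Rosi, the group means of Mir196a-2 were 5.11, 5.24, 5.19 and 5.21 on the deposited log2 scale. For Mir196a-1 they were 4.92, 4.88, 4.99 and 4.95, and for Mir10b 3.78, 3.74, 3.82 and 3.85. These lie near or under the 25th percentile of all genes (5.22), and whether the probe sets read above background was not determined.

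The values are log2 probe set signals with array medians of 5.97 to 6.05, and a gene is called changed where the adjusted p of limma's moderated test over all genes is under 0.05. Prdm16 read 6.55, 6.49 and 6.84 in EtOH, 6.33, 6.45 and 6.59 in 4OHT, 7.20, 7.46 and 7.44 in EtOH_Rosi and 6.63, 6.70 and 6.63 in 4OHT_Rosi. With rosiglitazone it was lower in 4OHT_Rosi by a log2 difference of -0.71 (adjusted p = 0.000646), and without it the groups overlapped (-0.17, adjusted p = 0.455). The mean of its probe sets in place of the brightest gave -0.39 with rosiglitazone. Whether its probe set lies in the floxed exon was not determined here. The array 4OHT_Rosi 3 stood apart on the third principal component of all genes, at 16.03 against -8.95 to 7.98 for the other 11 arrays, and results that rest on it are given without it too. Adipocyte markers were measured throughout, and their mean over 6 genes (Adipoq, Fabp4, Plin1, Lpl, Cebpa and Cidec) lay between 11.85 and 12.45 on all arrays.

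Differences between groups were small for most Hox genes. The range of the 4 group means had a median of 0.17 over the Hox genes and 0.20 over all genes, with a median pooled SD within groups of 0.098 and 0.097. Only 5 Hox genes had a range of at least 0.3, and 23 were under 0.2. The range was 1.05 for Hoxa9 and 0.76 for Hoxa4, the highest of the family. In all, 7 of the 36 members passed the test in at least 1 of the 5 comparisons, in 13 combinations of gene and comparison, and 29 in none, while 37.4% of all genes passed in at least 1. The deposited table gives no detection call. A filter at the median level of all genes would keep 17 Hox genes, 5 of the 7 called ones among them, and 61.2% of all genes at or above that level passed in at least 1 comparison.

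Rosiglitazone was compared with no rosiglitazone in the control cells. Hoxa9, Hoxa4 and Hoxc8 rose, by 0.59, 0.58 and 0.23, and Hoxc6, Hoxb6 and Hoxc9 fell, by 0.37, 0.31 and 0.19, on the log2 scale. These 6 of 36 Hox genes, 3 in each direction, stand beside a background in which 30.7% of all genes were called, 14.4% higher and 16.3% lower. The median difference of the Hox genes was 0.02 and that of all genes 0.01, and the median absolute difference was 0.06 against 0.12. After 4-hydroxytamoxifen, rosiglitazone raised Hoxa9, Hoxa4, Hoxc8 and Hoxc12 and lowered Hoxc6, 5 of 36 against 23.7% of all genes, 11.6% of them higher and 12.1% lower. The EtOH and EtOH_Rosi arrays take no part in this second difference, but the fit shares 1 estimate of the spread over all groups.

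**Figure D1:**
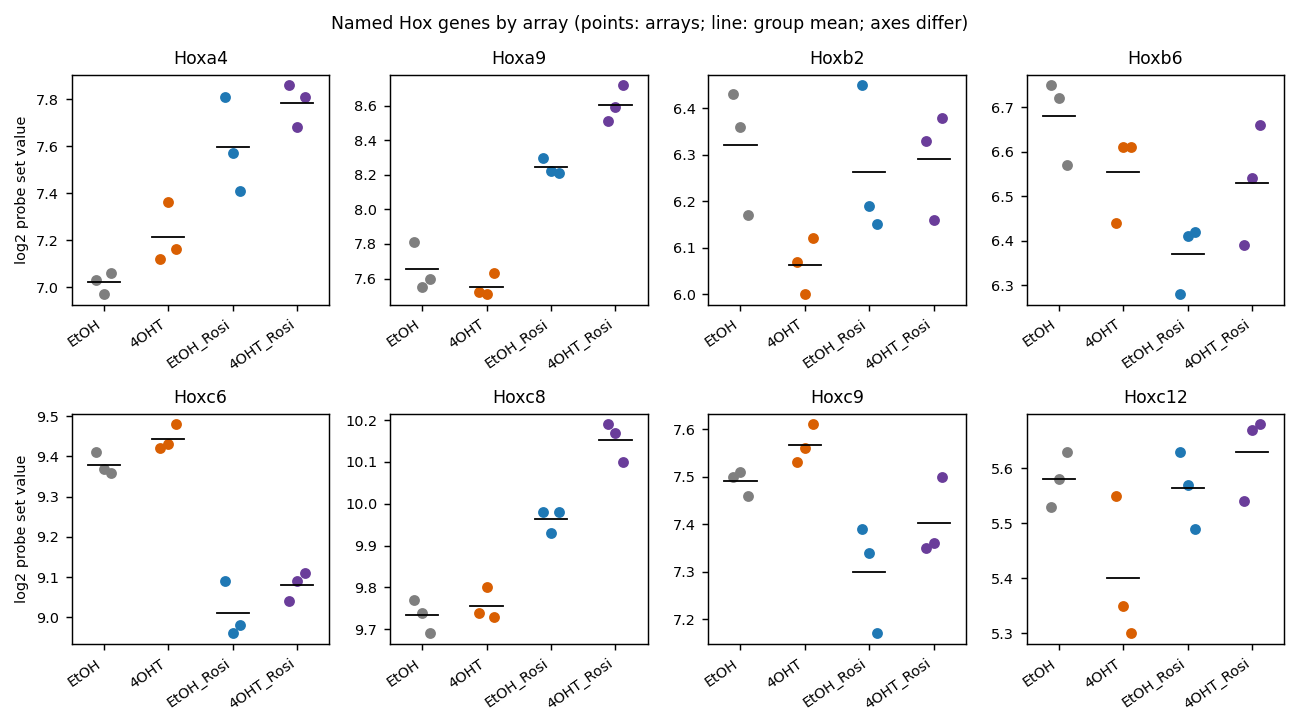
Deposited log2 values of the 8 named Hox genes on each of the 12 arrays, by group, with points for arrays and a line for the mean of 3, and a separate vertical axis for each gene. Hoxa9 lies between 7.51 and 7.81 on the 6 arrays without rosiglitazone and between 8.21 and 8.72 on the 6 with it, and Hoxc6 runs the other way.

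Hoxa9, a member of paralog group 9 that patterns the posterior trunk and limbs and is best known from haematopoietic cells, read 7.81, 7.55 and 7.60 in EtOH and 8.30, 8.22 and 8.21 in EtOH_Rosi. It read 7.52, 7.51 and 7.63 in 4OHT and 8.51, 8.59 and 8.72 in 4OHT_Rosi. All 6 rosiglitazone arrays were above all 6 others, and the 3 of 4OHT_Rosi were the highest. The rise was 0.59 ± 0.077 (SE; 1.51-fold, adjusted p = 4.54e-05) after ethanol and 1.05 ± 0.077 (2.08-fold, adjusted p = 4.78e-07) after 4-hydroxytamoxifen. Without the array 4OHT_Rosi 3, the rise after 4-hydroxytamoxifen was 1.00 (adjusted p = 2.81e-06).

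Hoxa4, which patterns the neck and upper trunk, read 7.03, 6.97 and 7.06 in EtOH and 7.81, 7.57 and 7.41 in EtOH_Rosi. It read 7.12, 7.36 and 7.16 in 4OHT and 7.86, 7.68 and 7.81 in 4OHT_Rosi. All 6 rosiglitazone arrays were again above the 6 others. The differences were close to each other, 0.58 ± 0.095 after ethanol (1.49-fold, adjusted p = 0.000325) and 0.57 ± 0.095 after 4-hydroxytamoxifen (1.48-fold, adjusted p = 0.00056), and the difference between them was -0.01 with a 95% interval of -0.30 to 0.28.

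Hoxc8, the white fat marker and miR-196a target, read 9.77, 9.74 and 9.69 in EtOH and 9.98, 9.93 and 9.98 in EtOH_Rosi. It read 9.74, 9.80 and 9.73 in 4OHT and 10.19, 10.17 and 10.10 in 4OHT_Rosi. The rosiglitazone arrays were all above the others, by 0.23 ± 0.053 after ethanol (1.17-fold, adjusted p = 0.00398) and 0.40 ± 0.053 after 4-hydroxytamoxifen (1.32-fold, adjusted p = 8.88e-05).

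Hoxc6, a trunk-patterning gene and the nearest measured neighbour of Hoxc8 on one side, moved the other way. It read 9.41, 9.37 and 9.36 in EtOH and 9.09, 8.96 and 8.98 in EtOH_Rosi. It read 9.42, 9.43 and 9.48 in 4OHT and 9.04, 9.09 and 9.11 in 4OHT_Rosi. The fall was 0.37 ± 0.055 after ethanol (log2 difference -0.37, 1.29-fold, adjusted p = 0.000128) and 0.36 ± 0.055 after 4-hydroxytamoxifen (-0.36, 1.29-fold, adjusted p = 0.000236), with no overlap of arrays in either.

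Hoxc9, the other neighbour of Hoxc8 and a marker of white against brown fat, read 7.50, 7.51 and 7.46 in EtOH and 7.39, 7.34 and 7.17 in EtOH_Rosi. It read 7.53, 7.56 and 7.61 in 4OHT and 7.35, 7.36 and 7.50 in 4OHT_Rosi. The rosiglitazone arrays were all below the others of their pretreatment. The difference was -0.19 ± 0.067 after ethanol (1.14-fold, adjusted p = 0.0462) and -0.16 ± 0.067 after 4-hydroxytamoxifen, where it did not pass (adjusted p = 0.103). Without 4OHT_Rosi 3 the latter was -0.21 and passed (adjusted p = 0.0457), as it did with array weights (0.0494) and among genes above the median level (0.0498). The call after ethanol was near the threshold. It was lost without any 1 of EtOH 1, EtOH 2, EtOH 3, 4OHT 1, 4OHT 2, 4OHT 3, EtOH_Rosi 2, EtOH_Rosi 3 and 4OHT_Rosi 2, with adjusted p from 0.054 to 0.197, and without EtOH_Rosi 3 the difference was -0.125.

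Hoxb6, a member of paralog group 6 expressed in the trunk, read 6.75, 6.72 and 6.57 in EtOH and 6.28, 6.41 and 6.42 in EtOH_Rosi, a difference of -0.31 ± 0.081 (1.24-fold, adjusted p = 0.00932). It read 6.44, 6.61 and 6.61 in 4OHT and 6.39, 6.54 and 6.66 in 4OHT_Rosi, which overlapped, and the difference was -0.02 (adjusted p = 0.888). The difference between the rosiglitazone effects of both pretreatments was 0.29, which did not pass (adjusted p = 0.271).

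Hoxc12, a gene of the posterior end of the cluster, passed only after 4-hydroxytamoxifen, with 5.55, 5.35 and 5.30 in 4OHT against 5.54, 5.67 and 5.68 in 4OHT_Rosi, a difference of 0.23 ± 0.073 (1.17-fold, adjusted p = 0.0358). The arrays overlapped, at 5.54 and 5.55. In EtOH it read 5.53, 5.58 and 5.63 and in EtOH_Rosi 5.63, 5.57 and 5.49, a difference of -0.02 (adjusted p = 0.904), and the difference between both effects was 0.25 (adjusted p = 0.295). The call was lost without EtOH 2, 4OHT 2, 4OHT 3, 4OHT_Rosi 2 or 4OHT_Rosi 3, each left out alone, with adjusted p from 0.0502 to 0.149.

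**Figure D2:**
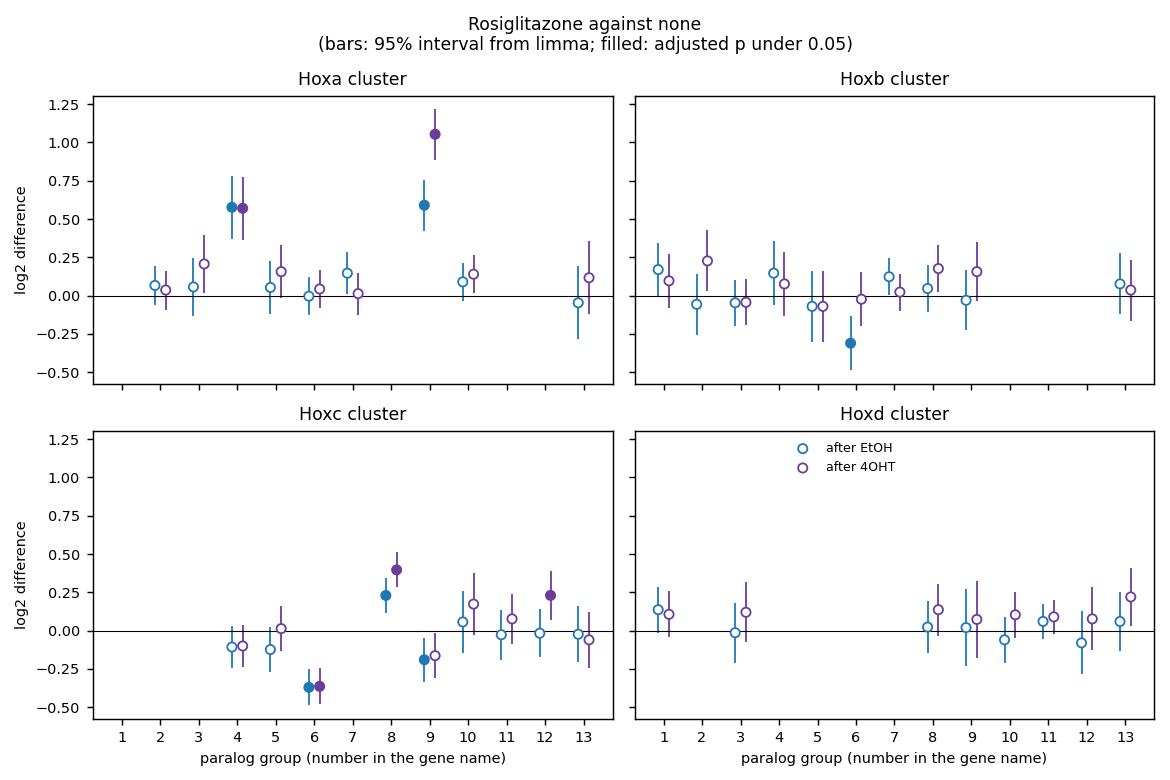
Log2 difference of rosiglitazone against none for each of the 36 Hox genes, by cluster (panels) and paralog group (horizontal axis), after ethanol (blue) and after 4-hydroxytamoxifen (purple), with 95% intervals and filled points at adjusted p under 0.05. Hoxa4 and Hoxa9 stand out above their neighbours, Hoxc6 below and Hoxc8 above zero, and no Hoxd gene is filled.

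Neighbouring genes of a cluster gave different values. In the Hoxa cluster, Hoxa4 lies between Hoxa3, with a difference of 0.06 after ethanol, and Hoxa5, with 0.05. Hoxa9 lies between Hoxa7 (0.15) and Hoxa10 (0.09). None of these 4 neighbours passed the test in that comparison, though Hoxa7 passed in some other settings of the fit and Hoxa10 in 1. Hoxa3 had a mean level of 5.40, under the median of all genes (6.60). In the Hoxc cluster the order Hoxc6, Hoxc8, Hoxc9 and Hoxc10 gave -0.37, 0.23, -0.19 and 0.06.

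The same held within paralog groups, the genes that share a number. In group 9, beside the 0.59 of Hoxa9 and -0.19 of Hoxc9 after ethanol, Hoxb9 gave -0.03 and Hoxd9 0.02. In group 4, beside Hoxa4, Hoxb4 gave 0.15 and Hoxc4 -0.11. In group 6, Hoxc6 and Hoxb6 fell and Hoxa6 gave -0.003. In group 8, beside Hoxc8, Hoxb8 gave 0.05 and Hoxd8 0.02. Apart from those named as called above, none of these passed the test. Hoxb8 had a mean level of 4.95, under the 25th percentile of all genes (5.22). Hoxd9 (5.38), Hoxc4 (6.03) and Hoxb6 (6.53) were under the median (6.60). A small difference at such levels may reflect weak signal, which was not tested.

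The remaining members passed in no comparison of the fit over all arrays. Hoxd13 passed after 4-hydroxytamoxifen without 4OHT 2 (0.30, adjusted p = 0.0399), and Hoxd1 after ethanol without EtOH 3 (0.20, adjusted p = 0.0426). Among the 36, the 95% intervals of the differences not called after ethanol lay within -0.30 to 0.35, and after 4-hydroxytamoxifen within -0.31 to 0.43. Of the Hoxd cluster, whose posterior genes pattern the digits, only Hoxd8 and Hoxd10 had a mean level above the median of all genes (6.60). Its differences were -0.08 to 0.14 after ethanol and 0.07 to 0.22 after 4-hydroxytamoxifen. The latter were all positive in its 8 genes, of which 1 had an unadjusted p under 0.05, or 12.5% against 33% of all genes. Over the 36 genes, 29 differences were positive after 4-hydroxytamoxifen with a median of 0.09, against 0.00 for all genes, and 19 were positive after ethanol. Of all 22180 genes, 11100 were positive after 4-hydroxytamoxifen and 11965 after ethanol. The 29 became 28 with array weights. The 19 became 23 with quantile normalization, 25 with median centring and 21 with array weights. At an unadjusted p under 0.05 there were 8 Hox genes after ethanol, against 38.2% of all genes, and 11 after 4-hydroxytamoxifen, against 33%. In the plain separation of arrays after 4-hydroxytamoxifen, 11 Hox genes had all rosiglitazone arrays above and 3 all below, against 36% of all genes in either direction. After ethanol these numbers were 4 and 3, against 40.7%.

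Hoxc10 and Hoxa5 were singled out for what is known of them in fat, after their values had been seen. Hoxc10 read 8.13, 8.02 and 7.85 in EtOH, 8.18, 8.10 and 8.04 in 4OHT, 7.98, 8.09 and 8.10 in EtOH_Rosi and 8.34, 8.07 and 8.43 in 4OHT_Rosi. The 4OHT_Rosi arrays overlapped those of the other groups, and the rosiglitazone differences were 0.06 after ethanol (adjusted p = 0.723) and 0.17 after 4-hydroxytamoxifen (adjusted p = 0.226). Without 4OHT_Rosi 2 the latter was 0.28 and passed (adjusted p = 0.0364). Hoxa5, which is higher in some white depots than in others, had group means of 6.97, 6.82, 7.02 and 6.98 in the order EtOH, 4OHT, EtOH_Rosi and 4OHT_Rosi, with rosiglitazone differences of 0.05 (adjusted p = 0.693) and 0.16 (adjusted p = 0.198). Without 4OHT 3 the second was 0.25 and passed (adjusted p = 0.0248).

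Other settings changed the split of calls after ethanol. With quantile normalization 6 Hox genes were higher and 2 lower in place of 3 and 3, since Hoxa7 (0.21), Hoxa10 (0.16) and Hoxb7 (0.17) passed and Hoxc9 did not (-0.12). With array weights 6 were higher and 3 lower, since Hoxa7 (0.19), Hoxb7 (0.16) and Hoxd1 (0.20) passed.

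Cell type markers moved with rosiglitazone. For comparison, 14.4% of all genes were called higher and 16.3% lower after ethanol, and 11.6% and 12.1% after 4-hydroxytamoxifen. The mean of the adipocyte markers rose from 11.85 to 11.93 in EtOH to 12.33 to 12.36 in EtOH_Rosi, and from 11.88 to 11.95 in 4OHT to 12.34 to 12.45 in 4OHT_Rosi, with 4 and 2 of 6 genes called higher. The median differences of this list were 0.235 and 0.10. Cidec gave the widest, 1.89 and 2.19, while Fabp4 (0.08 and 0.04) and Lpl (-0.02 and 0.02) were not called. The mean of 5 measured precursor markers (Pdgfra, Pdgfrb, Cd34, Dpp4 and Dlk1) lay at 9.96 to 10.02 and 9.72 to 9.86 without rosiglitazone and at 8.82 to 9.03 and 8.80 to 9.13 with it, and 4 of the 5 were called lower in each comparison. The 6 endothelial markers lay at 9.57 to 9.69 in EtOH and 9.45 to 9.57 in 4OHT, against 8.79 to 8.94 in EtOH_Rosi and 8.75 to 9.09 in 4OHT_Rosi. Of these, 6 were called lower after ethanol and 5 after 4-hydroxytamoxifen. The means of 6 macrophage and leukocyte markers were 8.98 to 9.29, 8.74 to 8.90, 8.50 to 8.64 and 8.48 to 8.54 in the order EtOH, 4OHT, EtOH_Rosi and 4OHT_Rosi, with 5 and 3 called lower. Those of 5 smooth muscle markers were 9.50 to 9.76, 9.72 to 9.80, 8.45 to 8.81 and 9.13 to 9.48, with 5 and 4 called lower. Skeletal muscle (6.24 to 6.53), epithelial and mesothelial (6.59 to 7.17) and Schwann cell markers (5.12 to 5.30) gave lower means throughout. The part of these shifts in the Hox results was not tested.

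**Figure D3:**
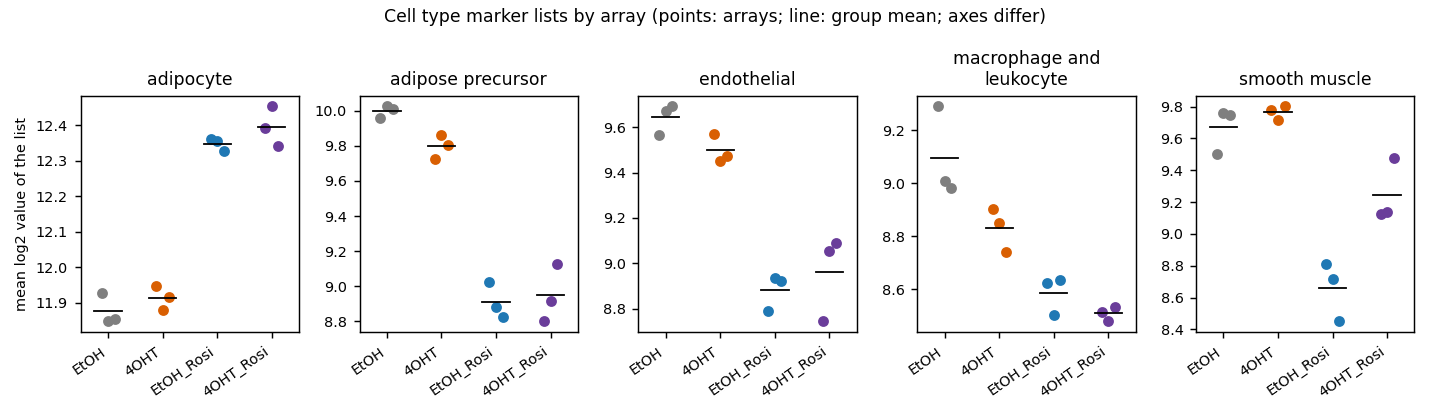
Mean log2 value of 5 marker lists (6 adipocyte, 5 precursor, 6 endothelial, 6 macrophage and leukocyte and 5 smooth muscle genes) on each of the 12 arrays, by group, with a line for the group mean and a separate axis for each list. The adipocyte mean is higher and the other 4 are lower on the rosiglitazone arrays than on the arrays of the same pretreatment without it.

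The cells given 4-hydroxytamoxifen were compared with their ethanol controls at each differentiation. Without rosiglitazone no Hox gene passed the test, against 3.91% of all genes (2.13% higher and 1.79% lower), and with rosiglitazone Hoxa9 and Hoxc8 passed, both higher in 4OHT_Rosi, 2 of 36 against 8.03% of all genes (4.65% higher and 3.38% lower). At an unadjusted p under 0.05 there were 3 Hox genes without rosiglitazone (16% of all genes) and 6 with it (20.7%). The medians over the Hox genes were -0.04 and 0.04, those over all genes 0.00 and -0.01, and the differences not called had 95% intervals within -0.46 to 0.40 without rosiglitazone and -0.29 to 0.43 with it. Arrays of the groups did not overlap for 5 Hox genes without rosiglitazone, 3 higher and 2 lower, against 22.9% of all genes, and for 6 with it, 3 in each direction, against 21.8%.

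Hoxa9 was higher in 4OHT_Rosi than in EtOH_Rosi by 0.36 ± 0.077 (1.29-fold, adjusted p = 0.0107), with all 3 arrays (8.51 to 8.72) above the controls (8.21 to 8.30). Without rosiglitazone 4OHT and EtOH overlapped, with a difference of -0.10 (adjusted p = 0.617). Leaving out 4OHT_Rosi 3 gave 0.31 with rosiglitazone (adjusted p = 0.0446). The difference between both effects was 0.46 ± 0.11, with a 95% interval of 0.23 to 0.70, and did not pass over all genes (adjusted p = 0.068). It was the smallest p of the family in that comparison. It reached an adjusted p of 0.0469 with an intensity trend and robust estimation, of 0.0344 among genes above the median level, and of 0.05 rounded without 4OHT_Rosi 1, with a difference of 0.51.

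Hoxc8 was higher in 4OHT_Rosi by 0.19 ± 0.053 (1.14-fold, adjusted p = 0.044), with arrays at 10.10 to 10.19 against 9.93 to 9.98 in the controls. Without rosiglitazone 4OHT and EtOH differed by 0.02 (adjusted p = 0.901), and the difference between both effects was 0.17 (adjusted p = 0.337). The call was near the threshold and was kept without EtOH 3 or 4OHT_Rosi 3. It was lost without each of the 10 other arrays in turn (EtOH 1, EtOH 2, 4OHT 1, 4OHT 2, 4OHT 3, EtOH_Rosi 1, EtOH_Rosi 2, EtOH_Rosi 3, 4OHT_Rosi 1 and 4OHT_Rosi 2), with adjusted p from 0.0509 to 0.143.

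Hoxb2, which patterns the hindbrain and neck, had the smallest p without rosiglitazone. It read 6.43, 6.36 and 6.17 in EtOH and 6.07, 6.0 and 6.12 in 4OHT, all below the controls, a difference of -0.26 ± 0.092 that did not pass (adjusted p = 0.169). With rosiglitazone it read 6.45, 6.19 and 6.15 in EtOH_Rosi and 6.33, 6.16 and 6.38 in 4OHT_Rosi, which overlapped, a difference of 0.03 (adjusted p = 0.913). Estimated array weights alone brought the first to an adjusted p of 0.0286.

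**Figure D4:**
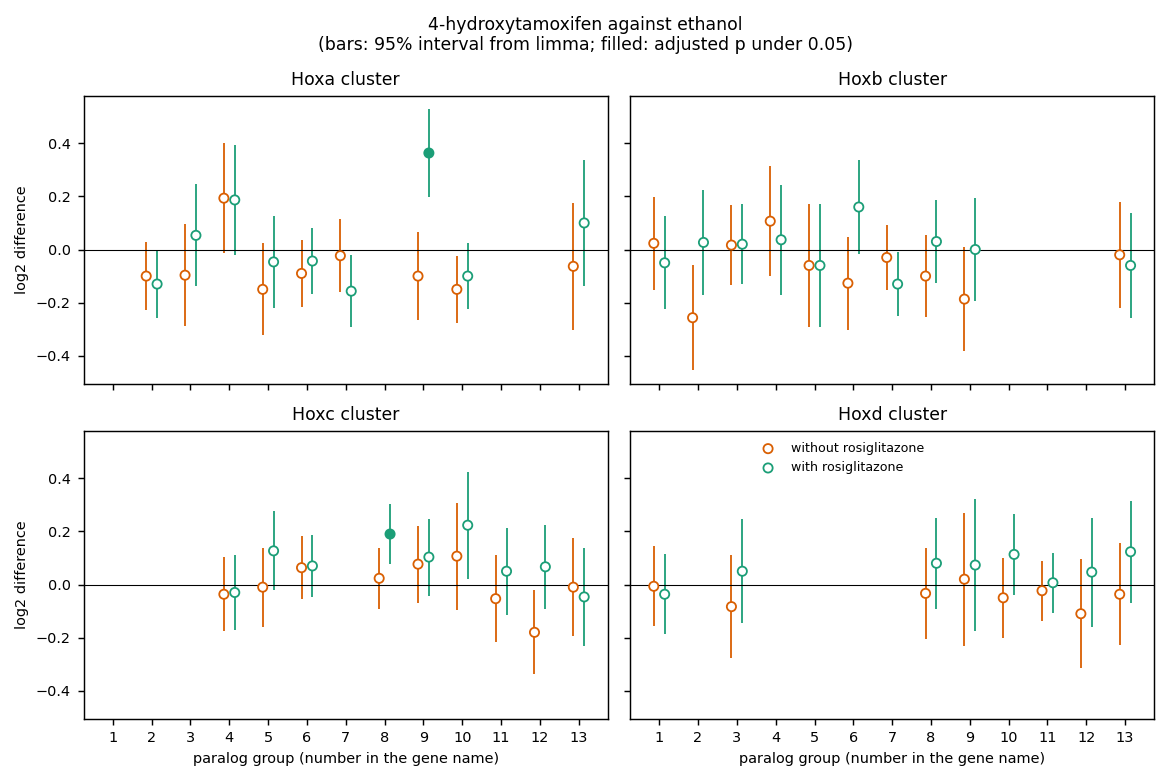
Log2 difference of 4-hydroxytamoxifen against ethanol for each of the 36 Hox genes, by cluster (panels) and paralog group (horizontal axis), without rosiglitazone (orange) and with it (green), with 95% intervals and filled points at adjusted p under 0.05. Only Hoxa9 (0.36) and Hoxc8 (0.19) are filled, both with rosiglitazone.

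Over the whole family 27 of 36 differences were negative without rosiglitazone and 24 positive with it. Of all 22180 genes, 10959 were negative without rosiglitazone and 10405 positive with it. Without rosiglitazone 9 Hox genes were positive, also with quantile normalization, but 12 with median centring and 14 with array weights. With rosiglitazone these settings left 23 or 24 positive. In the interaction, 26 Hox genes were positive with a median of 0.08, but 22 with quantile normalization and 23 with median centring. Of all 22180 genes, 10794 were positive there. None of the 36 was called (all genes 1.01%), and 5 had an unadjusted p under 0.05, against 14% of all genes. These counts share arrays with the rosiglitazone comparisons above: the 4OHT arrays enter both the 27 and the 29. Hoxc10 differed by 0.11 without rosiglitazone (adjusted p = 0.674) and by 0.22 with it (95% interval 0.02 to 0.43, adjusted p = 0.187), and without 4OHT_Rosi 2 the latter was 0.33 and passed (adjusted p = 0.0408). Of the cell type markers, 3 of 5 smooth muscle genes were called higher in 4OHT_Rosi and 2 in 4OHT, with list medians of 0.53 and -0.05. Kdr, higher in 4OHT_Rosi, was the 1 endothelial gene called of 6, and the list median there was 0.03. Of 6 macrophage and leukocyte genes, 2 were called lower in 4OHT and 1 in 4OHT_Rosi. Among all genes, 2.13% were called higher and 1.79% lower in 4OHT, and 4.65% and 3.38% in 4OHT_Rosi. The precursor marker Pdgfra, the 1 gene called of 5, was lower in 4OHT and in 4OHT_Rosi (-0.53 and -0.39, adjusted p = 0.00489 and 0.0179). The medians of the precursor list were -0.19 without rosiglitazone and 0.09 with it. Without rosiglitazone the adipocyte marker Cebpa was higher and Cidec lower in 4OHT, and with it none of the 6 adipocyte markers was called. The part of these markers in the Hox differences was not tested.

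The proteins that bind DNA together with Hox factors were read on 9 of 10 listed genes, all homeodomain proteins of the TALE class. After ethanol, rosiglitazone lowered 5 and raised 1, with a list median of -0.24, while 16.3% of all genes were called lower and 14.4% higher. Pknox2 gave -0.78 (adjusted p = 1.23e-05), Meis1, the best known partner of Hoxa9, -0.44 (adjusted p = 6.71e-05), and Tgif1, a repressor of this class, -0.41 (adjusted p = 0.00421). Pbx2 rose by 0.46 (adjusted p = 3.89e-05). Meis1 read 7.89, 7.97 and 7.88 in EtOH and 7.51, 7.47 and 7.43 in EtOH_Rosi, with no overlap. After 4-hydroxytamoxifen only Pknox2 was called (-0.57, adjusted p = 0.000295), 1 of 9 against 23.7% of all genes. Between the pretreatments, none was called without rosiglitazone. With it, Pknox1 was higher in 4OHT_Rosi by 0.35 (adjusted p = 0.0179) and Pbx2 lower (-0.21, adjusted p = 0.0495). The Pknox1 call was lost without EtOH_Rosi 1, EtOH_Rosi 2, 4OHT_Rosi 1 or 4OHT_Rosi 2 (adjusted p 0.0596 to 0.08). That of Pbx2 was lost without any 1 array other than EtOH 3 and EtOH_Rosi 1 (0.0594 to 0.16).

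Hox genes are held silent by Polycomb proteins, kept active by Trithorax proteins and induced by retinoic acid and Cdx factors, and 27 of 28 listed genes of these kinds were read. Rosiglitazone raised 4 and lowered 7 after ethanol, with a median of 0.02, and raised 3 and lowered 6 after 4-hydroxytamoxifen, with a median of -0.02. Over all genes 30.7% and 23.7% were called, with medians of 0.01 and 0.00. Kmt2a, the Trithorax methyltransferase MLL1 that maintains Hoxa9 transcription in blood cells, read 8.86, 8.83 and 8.80 in EtOH and 8.40, 8.47 and 8.39 in EtOH_Rosi. It fell in both, with -0.41 (adjusted p = 9.48e-05) and -0.34 (adjusted p = 0.00064), and no arrays overlapped after either pretreatment. Of the Polycomb subunits after ethanol, Phc2 gave -0.44 (adjusted p = 4.17e-05), Rnf2 -0.31 (adjusted p = 0.000267) and Suz12 0.52 (adjusted p = 0.000193). Of the retinoic acid receptors after 4-hydroxytamoxifen, Rarb rose by 0.64 (adjusted p = 0.000198) and Rara gave -0.40 (adjusted p = 0.000584).

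Between the pretreatments, 1 of the 27 regulators was called without rosiglitazone and 3 with it, against 3.91% and 8.03% of all genes. Without rosiglitazone Ezh2, the Polycomb methyltransferase, was lower in 4OHT, with 8.38, 8.48 and 8.47 against 8.77, 8.78 and 8.66 in EtOH (-0.29, adjusted p = 0.0244). This call was lost without EtOH 1, EtOH 2, 4OHT 1, 4OHT 2 or 4OHT 3 (adjusted p 0.0625 to 0.114). With rosiglitazone 3 Polycomb genes were lower in 4OHT_Rosi: Cbx7 (-0.33, adjusted p = 0.00786), Jarid2 (-0.26, adjusted p = 0.0134) and Ezh1 (-0.21, adjusted p = 0.0222). In a fit of the 2 groups alone none of the 3 passed (adjusted p = 0.0615, 0.0954 and 0.115). The Jarid2 call was lost without EtOH_Rosi 3 or 4OHT_Rosi 3 (adjusted p 0.0521 to 0.0608), and that of Ezh1 without EtOH_Rosi 2, EtOH_Rosi 3, 4OHT_Rosi 1 or 4OHT_Rosi 3 (0.0533 to 0.08). Ezh1 read 9.39, 9.43 and 9.42 in 4OHT and 9.11, 9.16 and 9.13 in 4OHT_Rosi, a difference of -0.28 (adjusted p = 0.00105).

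Other transcription factors that differ between depots were described beside the Hox genes. Of 9 genes known from white subcutaneous fat, rosiglitazone lowered 4 and raised 1 after either pretreatment, against 30.7% of all genes called after ethanol and 23.7% after 4-hydroxytamoxifen. Tbx15, a T-box factor high in subcutaneous fat, read 10.07, 10.19 and 10.22 in EtOH, 9.98, 10.00 and 10.04 in 4OHT, 9.64, 9.69 and 9.62 in EtOH_Rosi and 9.47, 9.46 and 9.57 in 4OHT_Rosi. The rosiglitazone arrays were all below, with -0.51 after each pretreatment (adjusted p = 1.47e-05 and 2.63e-05). Emx2 (-0.75 and -0.51, adjusted p = 7.52e-06 and 0.000298), the dermal and limb factor En1 (-0.61 and -0.38, adjusted p = 7.75e-05 and 0.00442) and the forelimb factor Tbx5 (-0.37 and -0.53, adjusted p = 0.00391 and 0.000453) fell too, after ethanol and after 4-hydroxytamoxifen. Shox2, a homeobox factor of subcutaneous fat, was the gene of this list that rose, by 0.27 (adjusted p = 0.00786) and 0.61 (adjusted p = 2.42e-05). Its 4OHT_Rosi arrays read 7.88, 7.77 and 8.03 against 7.35, 7.27 and 7.23 in 4OHT, and without 4OHT_Rosi 3 the difference was 0.54 (adjusted p = 6.98e-05). The list medians were -0.10 and 0.05.

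Of 7 visceral depot genes, 2 rose after each pretreatment, against 14.4% and 11.6% of all genes called higher, and none fell. After ethanol these were the GATA factors Gata6 (0.22, adjusted p = 0.0101) and Gata4 (0.30, adjusted p = 0.0117). After 4-hydroxytamoxifen they were Nr2f1, a nuclear receptor (0.26, adjusted p = 0.0132), and Gata6 (0.18, adjusted p = 0.0401). The calls after ethanol were lost without EtOH_Rosi 2 for Gata6 (adjusted p = 0.0523) and without EtOH 1 for Gata4 (adjusted p = 0.0586). Those after 4-hydroxytamoxifen were lost without 4OHT 1 or 4OHT_Rosi 3 for Nr2f1 (0.0516 to 0.0618), and for Gata6 without EtOH 2 or any 1 of the 4OHT and 4OHT_Rosi arrays (0.054 to 0.126). Wt1, the mesothelial factor that marks visceral fat, passed in neither.

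Of 11 brown and beige genes read of 12, rosiglitazone raised 4 and lowered 3 after ethanol, against 30.7% of all genes called, and lowered 2 after 4-hydroxytamoxifen, against 23.7%. Ebf2, an early factor of brown and beige precursors, rose by 0.50 (adjusted p = 0.000108) after ethanol, with 10.07, 10.17 and 10.25 in EtOH_Rosi against 9.72, 9.69 and 9.59 in EtOH. Meox2, a mesodermal homeobox factor, gave the widest difference of the lists read here apart from the cell type markers, -1.41 (adjusted p = 6.98e-06), and -1.21 after 4-hydroxytamoxifen (adjusted p = 4.03e-05). The beige marker Cited1 rose by 0.39 (adjusted p = 0.0113) and Ebf3 by 0.27 (adjusted p = 0.0129). These calls were lost without EtOH 1 or EtOH_Rosi 3 for Cited1 (adjusted p 0.0502 to 0.0577) and without EtOH 3 or EtOH_Rosi 3 for Ebf3 (0.0564 to 0.0638). Lhx8, a homeobox marker of brown fat, gave -0.39 after ethanol (adjusted p = 0.0285) and -0.38 after 4-hydroxytamoxifen (adjusted p = 0.0396). The call after 4-hydroxytamoxifen was lost without EtOH 2, 4OHT 1, 4OHT 2, 4OHT 3, EtOH_Rosi 2, 4OHT_Rosi 1 or 4OHT_Rosi 2 (adjusted p 0.051 to 0.177), and without 4OHT_Rosi 1 the difference was -0.25. The call after ethanol was not followed in these fits.

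**Figure D5:**
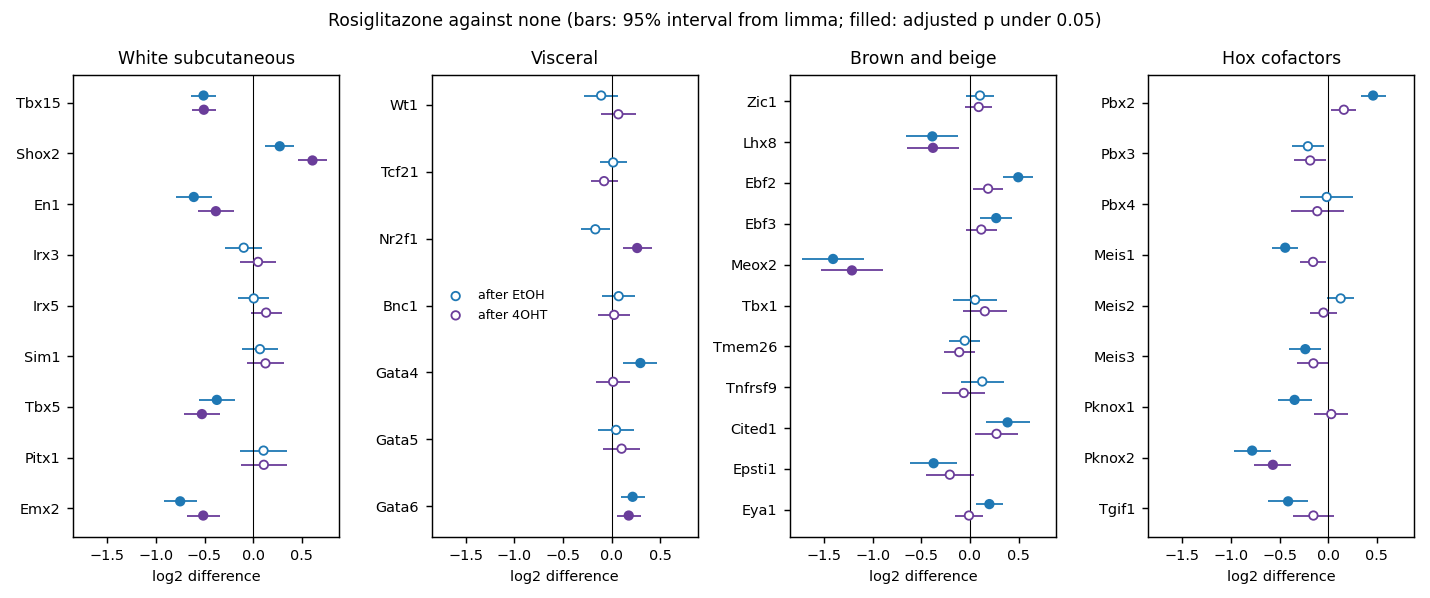
Log2 difference of rosiglitazone against none for the measured genes of 4 lists (white subcutaneous, visceral, brown and beige, Hox cofactors), after ethanol (blue) and after 4-hydroxytamoxifen (purple), with 95% intervals and filled points at adjusted p under 0.05. Tbx15, Emx2, En1, Tbx5, Meox2 and Pknox2 lie below zero after both, and Shox2 above.

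Between the pretreatments, 3 of the 27 genes of the depot lists passed without rosiglitazone and 3 with it, against 3.91% and 8.03% of all genes. Without rosiglitazone, Emx2 (-0.34, adjusted p = 0.028) and Nr2f1 (-0.32, adjusted p = 0.0199) were lower in 4OHT and Epsti1 higher (0.48, adjusted p = 0.0311). Each of the 3 calls was lost in 5 of the fits that left out 1 array. For Emx2 these were all 6 EtOH and 4OHT arrays but EtOH 1 (adjusted p 0.0659 to 0.12), for Nr2f1 all but 4OHT 3 (0.054 to 0.0951), and for Epsti1 all but 4OHT 3 (0.0535 to 0.126). With rosiglitazone Epsti1 was higher in 4OHT_Rosi (0.65, adjusted p = 0.00317), and Ebf2 (-0.31, adjusted p = 0.0185) and Eya1 (-0.26, adjusted p = 0.0242) were lower. Epsti1 is listed as a beige marker and is also an interferon-stimulated gene. Irf7, another such gene, was higher after 4-hydroxytamoxifen by 2.31 without and 2.23 with rosiglitazone (adjusted p = 4.01e-06 and 1.65e-06), and its part was not tested. The Ebf2 call was lost without EtOH_Rosi 2, EtOH_Rosi 3 or 4OHT_Rosi 3 (adjusted p 0.0593 to 0.0761), and with the mean of its probe sets the difference was -0.19 (adjusted p = 0.0587). That of Eya1 was lost without EtOH_Rosi 1, EtOH_Rosi 2, EtOH_Rosi 3, 4OHT_Rosi 1 or 4OHT_Rosi 3 (0.0548 to 0.0819).

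Genes that lie in or next to the Hox clusters were read on 14 of 18 listed genes. Hotair, the long non-coding RNA of the Hoxc cluster, had group means of 5.28, 5.29, 5.23 and 5.16 in the order EtOH, 4OHT, EtOH_Rosi and 4OHT_Rosi and passed in no comparison. This is near the 25th percentile of all genes (5.22). Rosiglitazone raised flanking genes that are not Hox genes, 3 after ethanol and 2 after 4-hydroxytamoxifen, against 14.4% and 11.6% of all genes called higher. Hibadh, an enzyme of valine breakdown beside the Hoxa cluster, rose by 0.48 (adjusted p = 6.15e-06) and 0.33 (adjusted p = 0.000269). Mtx2, a mitochondrial import protein beside the Hoxd cluster, rose by 0.39 (adjusted p = 0.0006) and 0.47 (adjusted p = 0.000219). Calcoco2, beside the Hoxb cluster, gave 0.21 after ethanol (adjusted p = 0.0456). Its means were 4.43 in EtOH and 4.63 in EtOH_Rosi, under the 25th percentile of all genes (5.22). Its call was lost without any 1 of the EtOH or 4OHT arrays, EtOH_Rosi 2, EtOH_Rosi 3 or 4OHT_Rosi 1 (adjusted p 0.0547 to 0.199), and without EtOH_Rosi 3 the difference was 0.13. Beside Mtx2, no gene of the Hoxd cluster passed the test. Of that cluster only Hoxd8 and Hoxd10 had a mean level above the median of all genes (6.60). Hoxd11 (5.16) and Hoxd12 (5.20) were under the 25th percentile (5.22).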

How the data were processed

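The data are log2 probe set values of 12 arrays, as deposited by the authors, made with Affymetrix Expression Console per the submitters' processing notes. The version used, the probe set summary and the normalization were not stated in the labels. The deposited table as used here has 41345 probe sets, with values from 3.05 to 13.91. The 190 AFFX controls, 16010 probe sets without a symbol and 1814 with several were left out of the gene table. Of the 23521 with 1 symbol, 23328 were matched to RefSeq by Entrez ID. The brightest probe set per gene gave 22180 genes, with no filter on level. The number of arrays limits the precision.

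limma 3.58.1 in R 4.3.3 fitted 1 mean per group to all 12 arrays (lmFit, eBayes, 8 residual and 5.07 prior degrees of freedom), with 5 comparisons and Benjamini-Hochberg adjustment over all genes within each. Genes at an adjusted p under 0.05 were called. Intervals are limma's 95% intervals. The code of the fit was tried on simulated arrays with independent noise and planted differences, which hold no shared shifts or pairing of arrays. Named were Hox genes called in any comparison, the one with the smallest p in each, and up to 4 called genes per list. Hox members and lists were chosen with earlier results of these data known.

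Alternatives were a replicate block, array weights, an intensity trend with robust estimation, quantile normalization, median centring, level filters, the mean of probe sets, a fit of 2 groups, a 2-fold minimum, and the fit without each array in turn. A fit on all probe sets was added after seeing the data. Plots used Python 3.11.15 and matplotlib 3.10.9.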

Additional observations from a re-analysis of the deposited data

Results flagged for a closer look

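Tests of the difference between the 4-hydroxytamoxifen effects with and without rosiglitazone were passed by 2 genes of the lists, the Polycomb methyltransferase gene Ezh1 (-0.34) and the endothelial marker Kdr (0.61), at limma adjusted p of 0.0442 and 0.0379. They were 1 of 27 Hox regulators and 1 of 6 endothelial markers, and 1.01% of all genes passed this test. The other lists held no gene that passed. The Ezh1 call was kept only without EtOH_Rosi 1 among the fits that left out 1 array, and the other 11 gave adjusted p from 0.0583 to 0.114.

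Signal was also seen on probe sets that name several genes and are outside the Hox members. The probe set named for both Hoxb3 and Hoxb2 read 6.68, 6.77 and 6.84 in EtOH, 6.67, 6.73 and 6.64 in 4OHT, 6.98, 7.36 and 7.27 in EtOH_Rosi and 7.17, 7.14 and 7.06 in 4OHT_Rosi. Rosiglitazone raised it by 0.44 after ethanol and by 0.44 after 4-hydroxytamoxifen (limma adjusted p = 0.00424 and 0.00589 over all probe sets). The single-symbol probe sets of Hoxb2 and Hoxb3 gave -0.06 and -0.05 after ethanol. Another, named for both Hoxd4 and Hoxd3, was higher with rosiglitazone after 4-hydroxytamoxifen by 0.27 (adjusted p = 0.0481).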

How the results depend on the processing

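Of the 13 combinations of Hox gene and comparison that were called, 10 kept their direction and call under all 22 alternatives (fewer for genes under a level filter) other than a 2-fold minimum; the exceptions were Hoxc8 between the pretreatments with rosiglitazone, and Hoxc9 and Hoxc12 under rosiglitazone. No direction reversed. A 2-fold minimum left 0 Hox calls with rosiglitazone between the pretreatments, 0 for rosiglitazone after ethanol and 1 after 4-hydroxytamoxifen (Hoxa9). With rosiglitazone, the count of 2 between the pretreatments became 1 with the replicate block, quantile normalization, median centring, the fit of 2 groups and all probe sets. Without rosiglitazone the count of 0 became 1 with array weights, and that of the interaction 1 with the intensity trend and with the filter at the median level. Leaving out 1 array gave 0 to 0 Hox calls between the pretreatments without rosiglitazone, 1 to 2 with it, 5 to 6 for rosiglitazone after ethanol, 4 to 5 after 4-hydroxytamoxifen and 0 to 1 for the interaction.

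Hoxc8 between the pretreatments had adjusted p of 0.0806 with quantile normalization, 0.0562 with median centring and 0.157 in the fit of 2 groups. Hoxc9 after ethanol had 0.0653 with the intensity trend, 0.183 with quantile normalization, 0.131 with median centring and 0.0835 in the fit of 2 groups. Hoxc12 after 4-hydroxytamoxifen had 0.0516 with the trend, 0.0506 with array weights and 0.0765 in the fit of 2 groups. The cause was not tested. Of the 51 other named combinations, 31 were unchanged under every alternative but the 2-fold minimum. No scaling moved the median of all genes by more than 0.05.

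The replicate numbers did not pair the arrays: deviations from the group means correlated at -0.24 to 0.0786 for arrays of the same number and at -0.161 to 0.316 for others, and 0 of 12 arrays correlated best with one of its own number. With the number as a replicate block, Hox calls for Hoxc8 (adjusted p = 0.0786), Hoxc9 (0.0804) and Hoxc12 (0.0624) were lost.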

Other observations

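The rest of the Hox probe sets with several symbols, read outside the gene table, passed in no comparison when all 41155 probe sets other than controls were fitted with limma. The one named for both Mira and Hoxa7 was higher with rosiglitazone after ethanol by 0.26 (adjusted p = 0.059), and the 2 named for Hoxa11 and its antisense gene Hoxa11os were lower in 4OHT than in EtOH, at -0.20 and -0.15 (adjusted p = 0.15 and 0.503). The second probe set of Hoxb5 gave 0.02 and 0.12 with rosiglitazone after ethanol and after 4-hydroxytamoxifen (adjusted p = 0.92 and 0.324).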
